A study of Mus musculus with 2 samples.

Results

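The transcripts of 10 genes that encode core subunits of the Polycomb repressive complexes were described in G1E-ER4 cells: Ezh1, Ezh2, Eed, Suz12 and Jarid2 of Polycomb repressive complex PRC2, and Rnf2, Ring1, Bmi1, Cbx7 and Cbx8 of PRC1. The genes were chosen by name and found through their gene identifiers. No measured value was a rule of the choice, but earlier results of these data were known when it was made. All 10 were found among 43346 gene rows, of which 21474 were protein-coding. G1E-ER4 is an immortalized mouse erythroid line without functional Gata1, into which GATA1, the master transcription factor of red cell development, was restored as a fusion with the estrogen receptor's ligand-binding domain. Both libraries came from cells given 10 nM 17beta-estradiol for 30 h, which activates the fusion protein. They are labelled biological replicates 1 and 2 of 1 group. No untreated library was analysed here, so the values are levels in the treated state, and no effect of estradiol could be measured. Poly(A) RNA was sequenced in paired-end mode, with 73681318 expected counts in replicate 1 and 56056404 in replicate 2. The labels give both libraries the same biosample and do not say how the cultures of this single line were separated. With 2 libraries, each SD below measures only the spread between them. Standard errors of fitted ratios draw on the spread of all genes, and intervals on counts cover counting error only.

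Polycomb complexes keep developmental genes silent by marking histones. PRC2 methylates a lysine in the tail of histone H3 through EZH2 or its paralog EZH1, which need EED and SUZ12 for activity, and PRC1 attaches ubiquitin to another histone through the E3 ligases RING1 and RNF2 (also called RING1B). EZH2 is known to be the form of dividing cells and EZH1 that of cells that leave the cell cycle, and an exchange of EZH2 for EZH1 is known from erythroid differentiation.

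The labelled cell type was checked against marker genes. All 10 erythroid markers were present at 1 TPM or more in both libraries, with a summed level of 227200 and 232600 TPM. Gata1 is on this list, and its reads can come from the introduced fusion. TPM is the abundance corrected for transcript length, with a fixed total per library. A comparison of different genes by TPM also depends on the transcripts to which their reads were assigned. None of the 7 myeloid, 6 lymphoid, 4 fibroblast or 3 endothelial markers reached 1 TPM in both libraries. The summed myeloid level was 0.32 TPM in replicate 1 and 10.92 TPM in replicate 2, with Mpo at 0.19 and 3.96 TPM, and 1 myeloid, 1 lymphoid, 2 fibroblast and 1 endothelial marker stood at 0 counts in both. Of 5 megakaryocyte markers, 2 reached 1 TPM in both, and their sum was 4.51 and 7.65 TPM. The part of these other cell types in the differences between the libraries was not tested.

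Of the 10 subunit genes, 9 had at least 1 TPM in both libraries, beside 35.3% of all protein-coding genes, and Cbx8 had 0 counts in both. The median of the 10 genes was 33.7 TPM, beside 14.7 TPM over the 7743 protein-coding genes with a mean of at least 1 TPM. By the level of the whole gene row the order was Eed, Suz12, Bmi1, Ring1, Cbx7, Rnf2, Jarid2, Ezh2, Ezh1 and Cbx8. This order rests on transcripts that are not all annotated as protein-coding, and it changed when only protein-coding transcripts were summed, a scale added once the data had been seen. It was then Suz12, Cbx7, Rnf2, Ring1, Jarid2, Ezh2, Eed, Bmi1, Ezh1 and Cbx8. The transcripts and sequences behind that change are given for Eed, Ring1 and Bmi1 below, with both levels.

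**Figure D1:**
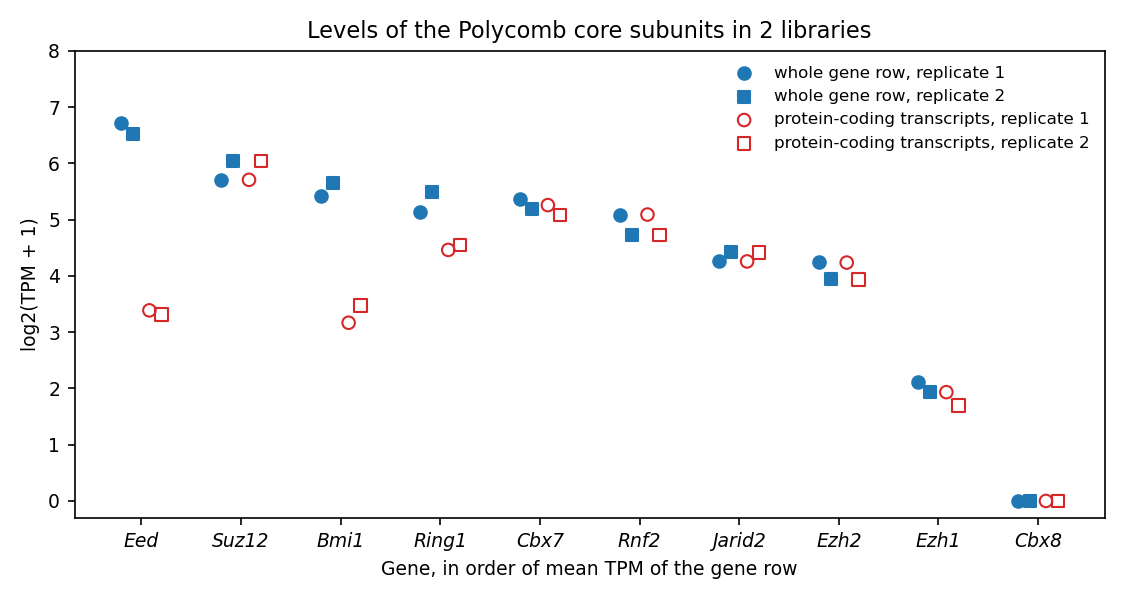
TPM of the 10 subunit genes in replicates 1 and 2, for the whole gene row and for protein-coding transcripts alone. Eed and Bmi1 hold much lower levels when only protein-coding transcripts are summed, and Ezh1 is the lowest gene with counts on both scales.

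Of the catalytic PRC2 subunits, Ezh2 was the major form and Ezh1 the minor one. Ezh2, which carries the methyltransferase (SET) domain of most cellular PRC2, lies at chr6:47530139-47595341 on the minus strand (mm10). It had 18.07 TPM (3218 expected counts) in replicate 1 and 14.42 TPM (1978 counts) in replicate 2, or 16.25 ± 2.58 TPM (SD, n = 2). Ezh1, its paralog with weaker methyltransferase activity, lies at chr11:101191115-101226463 on the minus strand. Ezh1 had 3.35 TPM (867 counts, exact 95% Poisson interval 810.2 to 926.7) in replicate 1 and 2.82 TPM (527 counts, interval 483.0 to 574.0) in replicate 2. Both libraries put Ezh1 below Ezh2, and the values of the genes did not overlap. These are bulk samples, in which fewer cells with a transcript and less of it per cell cannot be told apart.

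Ezh2 was 5.39-fold higher than Ezh1 in replicate 1 and 5.11-fold higher in replicate 2 (5.25 ± 0.198, SD, n = 2). On the log2(TPM + 1) scale, which understates folds of low genes, Ezh1 stood at −2.13 and −2.01 relative to Ezh2 in the same library. The mean of −2.07 had a standard error of 0.193, and limma gave an adjusted p of 3.02e-26 over all 8246 genes with a mean of at least 1 TPM. In the fits against Ezh2 and Rnf2 the standard error comes from the trend of the spread over all genes. A gene's own spread between the 2 libraries had no weight there. The adjusted p is therefore not an error of Ezh1 across replicates. A difference from Ezh2 was common: 84.3% of the genes in the fit passed an adjusted p of 0.05, with 38.0% above Ezh2 and 46.3% below it. Of the other 8 subunit genes with counts, 7 passed, Ezh1 below Ezh2 and Eed, Suz12, Rnf2, Ring1, Bmi1 and Cbx7 above it. Some of these calls depend on the scale. In protein-coding transcripts Eed and Bmi1 lay below Ezh2, Bmi1 at a log2 ratio of −0.77 (limma adjusted p = 4e-04), and Ring1 no longer passed (0.42, limma adjusted p = 0.0868). After adjustment for GC content Ring1 and Cbx7 lay below Ezh2, at −0.71 and −0.57 (limma adjusted p = 0.000448 and 0.0049). This adjustment takes from each gene the level fitted for its GC content over protein-coding genes. Adjusted ratios therefore compare how far genes depart from others of like GC content. They are not corrected levels, since a real link of GC content with level is removed as well.

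Ezh1 made up 15.6% of the summed Ezh1 and Ezh2 TPM in replicate 1 and 16.4% in replicate 2 (16% ± 0.566, SD, n = 2). In protein-coding transcripts alone the share was 13.6% in each library. In expected counts, which favour the longer Ezh1 transcript, it was 21.2% (exact binomial 95% interval 20 to 22.5) and 21% (19.5 to 22.7). The intervals of the libraries overlap, and they cover counting error only, as do all intervals on counts here. Ezh1 was at a higher level than 18.3% of the protein-coding genes with a mean of at least 1 TPM, and Ezh2 than 52.1%.

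**Figure D2:**
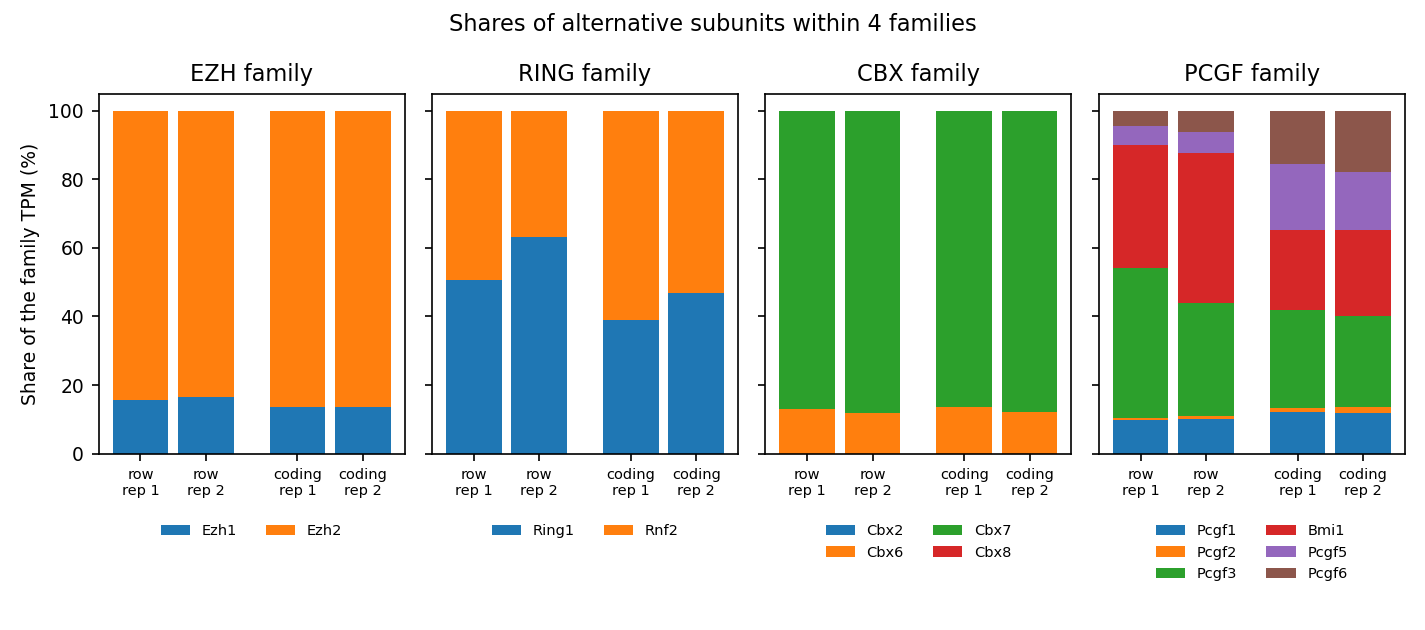
Share of the summed TPM taken by the genes described of the EZH, RING, CBX and PCGF families in replicates 1 and 2. Ezh2 and Cbx7 take most of their families in both libraries, whereas Ring1 and Rnf2 share theirs and the PCGF family is led by Bmi1 and Pcgf3.

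The transcript estimates put most Ezh2 in 1 form that lacks an in-frame coding exon. Ezh2-203, without the exon, took 76.58% of Ezh2 TPM in replicate 1 and 65.56% in replicate 2, by the authors' deposited percent of gene TPM. Ezh2-201, with the exon, took 13.8% and 28.88%. Over the 5 protein-coding transcripts that span the place, the form without the exon took 77.6% and 66% (71.8% ± 8.2, SD, n = 2). The exon spans 117 bases, or 39 codons, at chr6:47558178-47558294, and it is shown because it separates the leading Ezh2 form from the others.
Ezh2 alternative exon: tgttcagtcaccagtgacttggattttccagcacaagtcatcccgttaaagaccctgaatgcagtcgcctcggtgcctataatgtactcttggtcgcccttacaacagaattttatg
Ezh1 was led by Ezh1-203, a protein-coding transcript, with 80.07% and 72.44% of its TPM. The posterior mean estimate that the authors also deposited gave Ezh1-203 67.45% and 48.21% and moved 6.3% and 14.87% to Ezh1-202, a transcript of near-equal length that is otherwise listed at 0. The processed transcript Ezh1-209 took 10.85% and 20.2% of Ezh1 TPM from 13.62 and 15.85 expected counts.

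Among the partners of EZH1 and EZH2, Suz12 transcripts were abundant in both libraries. SUZ12 is the scaffold on which PRC2 assembles, and its gene lies at chr11:79993106-80034123 on the plus strand. Suz12 had 51.29 TPM (15881 counts) in replicate 1 and 64.74 TPM (15337 counts) in replicate 2, 58.02 ± 9.51 (SD, n = 2). It stood 2.84-fold and 4.49-fold above Ezh2, a mean log2 ratio of 1.77 with a standard error of 0.252 (limma adjusted p = 4.28e-12). Nearly all Suz12 came from protein-coding transcripts, so that its level is the same on both scales within rounding, and in protein-coding transcripts it was the highest of the 10 genes.

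Suz12 too was led by a form without an in-frame exon. Suz12-206 took 84.65% of its TPM in replicate 1 and 87.53% in replicate 2. Against Suz12-201, the form with the exon, the share of Suz12-206 was 84.8% and 87.5% (86.2% ± 1.91, SD, n = 2). The exon has 69 bases, or 23 codons, at chr11:79999057-79999125, with a GC content of 29.0%.
Suz12 alternative exon: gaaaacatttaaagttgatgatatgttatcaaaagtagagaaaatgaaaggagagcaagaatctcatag

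Eed had the highest row of the 10 genes, but most of it was assigned to a transcript that is not annotated as coding. EED binds the methylated histone tail and stimulates the enzyme, and its gene lies at chr7:89954654-89980983 on the minus strand. Its row had 104.38 TPM (3462 counts) in replicate 1 and 91.24 TPM (2297 counts) in replicate 2. Of that level, Eed-202, a retained-intron transcript of 454 bases, took 90.94% and 90.21%. The protein-coding Eed-201, of 2065 bases, held 9.46 and 8.93 TPM, 9.195 ± 0.375 (SD, n = 2).

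The 2 scales put Eed on different sides of Ezh2. The whole row was 5.78-fold and 6.33-fold above Ezh2 (mean log2 ratio 2.52, standard error 0.257, limma adjusted p = 4.1e-22). In protein-coding transcripts Ezh2 was the higher by 1.89-fold and 1.6-fold, a log2 ratio of Eed over Ezh2 of −0.74 (standard error 0.212, limma adjusted p = 0.000699). Counts are divided less unevenly than TPM, since a short transcript has a small effective length, 298.9 bases for Eed-202 in replicate 1. Eed-202 held 2115.18 of the Eed counts in replicate 1 (61.1%) and 1329.44 in replicate 2 (57.9%), against 1346.82 and 967.56 for Eed-201. Of the 454 bases of Eed-202, 301 lie in Eed-201 as well, and 153 lie in no annotated protein-coding Eed transcript.

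The sequences across the point where the non-coding transcript leaves the coding one are shown for the 3 genes in which a short non-coding transcript took over 30% of the TPM in a library, Eed, Bmi1 and Ring1. Lower case marks the last 30 bases of the coding exon, and capitals mark the bases found in no protein-coding transcript of the gene. They lie at chr7:89976744-89976926 (minus strand), chr2:18682290-18682365 (plus strand) and chr17:34024191-34024318 (minus strand).
Eed-202 boundary: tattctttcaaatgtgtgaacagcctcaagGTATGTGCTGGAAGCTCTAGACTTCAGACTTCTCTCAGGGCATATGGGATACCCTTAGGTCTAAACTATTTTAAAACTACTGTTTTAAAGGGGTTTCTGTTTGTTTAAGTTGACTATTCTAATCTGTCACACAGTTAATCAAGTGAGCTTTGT
Bmi1-203 boundary: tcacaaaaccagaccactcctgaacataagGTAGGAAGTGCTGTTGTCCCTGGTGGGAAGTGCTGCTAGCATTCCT
Ring1-202 boundary: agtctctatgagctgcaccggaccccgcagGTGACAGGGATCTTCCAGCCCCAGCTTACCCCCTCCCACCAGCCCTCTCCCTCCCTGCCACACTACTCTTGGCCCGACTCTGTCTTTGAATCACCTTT
In each of them the capitals start with GT, the letters of a 5′ splice site, where the coding transcript is spliced. Reads that lie in the shared bases alone can come from either transcript, and how they were divided was set by the authors' estimation.

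Jarid2 was close to Ezh2. JARID2, an accessory subunit that helps bring PRC2 to chromatin, is encoded at chr13:44729474-44921643 on the plus strand. Its row had 18.3 TPM (4180 counts) in replicate 1 and 20.48 TPM (3494 counts) in replicate 2, 19.39 ± 1.54 (SD, n = 2). Relative to Ezh2 the log2 ratio was 0.02 in replicate 1 and 0.48 in replicate 2. The mean of 0.25 did not pass (95% interval −0.22 to 0.71, limma adjusted p = 0.323), and the interval leaves room for a ratio on either side. After adjustment of TPM for the GC content of the transcripts the ratio was −0.45 (limma adjusted p = 0.0283). Jarid2 has a mean transcript GC content of 50.6%, above the 44.0% of Ezh2.

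Jarid2 was divided among several protein-coding transcripts. Jarid2-211, with 3089 annotated coding bases against 3702 in Jarid2-210, took 41.27% of its TPM in replicate 1 and 55.86% in replicate 2. Jarid2-210 took 29.93% and 17.55%, and Jarid2-209 took 20.65% and 19.27%. The leader was the same in both libraries, and the difference in its share between them was not tested.

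**Figure D3:**
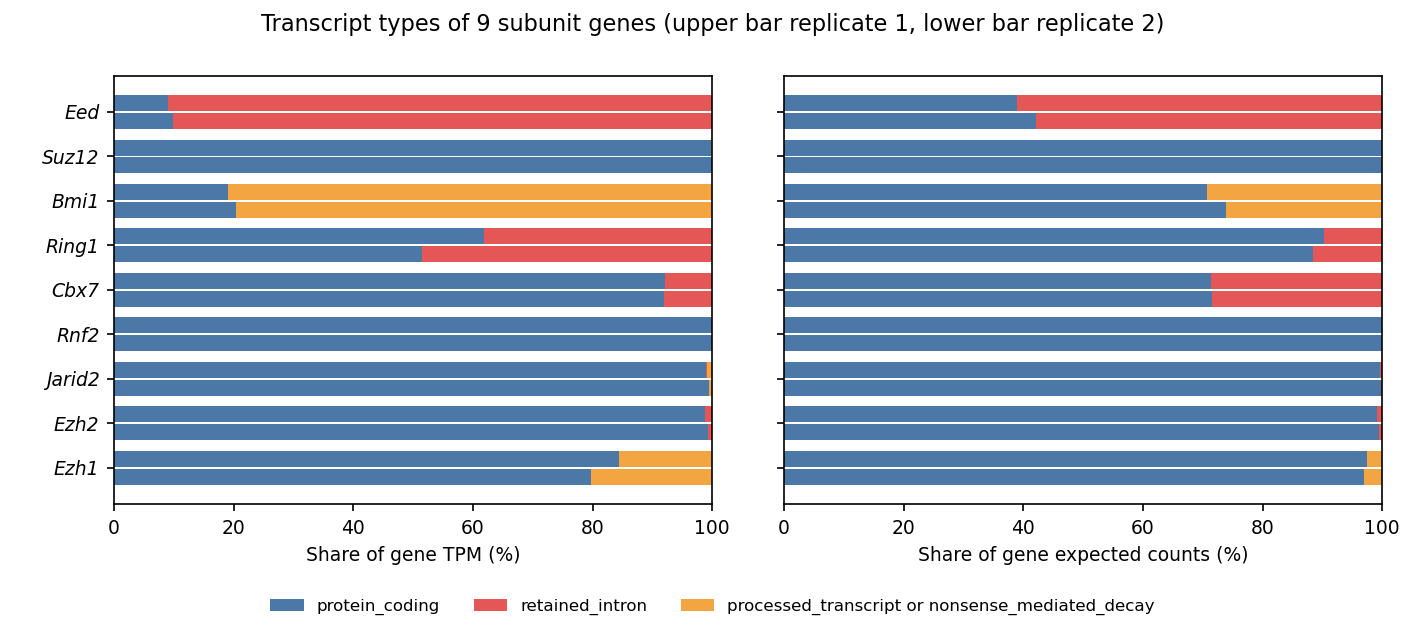
Share of each gene's TPM (left) and of its expected counts (right) in transcripts annotated protein_coding, retained_intron, or processed_transcript or nonsense_mediated_decay, for replicate 1 (upper bar) and replicate 2 (lower bar). Eed and Bmi1 are mostly non-coding by TPM, and by counts Bmi1 is mostly protein-coding, at 70.7% and 73.9%.

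Of the E3 ligases of PRC1, neither Rnf2 nor Ring1 was shown to be the higher. RNF2 is the main ubiquitin ligase of PRC1 in many cells, and its gene lies at chr1:151458004-151500955 on the minus strand. Rnf2 had 33.04 TPM (3119 counts) in replicate 1 and 25.45 TPM (1911 counts) in replicate 2, 29.24 ± 5.37 (SD, n = 2). RING1, its paralog, is encoded at chr17:34020792-34024680 on the minus strand. Ring1 had 33.95 TPM (3263 counts) in replicate 1 and 43.68 TPM (2707 counts) in replicate 2, 38.81 ± 6.88 (SD, n = 2). The genes were level in replicate 1, and Ring1 was the higher in replicate 2.

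The log2 ratio of Ring1 over Rnf2 was 0.04 in replicate 1 and 0.76 in replicate 2, and the mean of 0.40 did not pass (95% interval −0.16 to 0.96, limma adjusted p = 0.188). Beside this, 82.8% of genes in the fit differed from Rnf2, with 24.8% above it and 57.9% below it. In protein-coding transcripts Ring1 fell below Rnf2, with 21.02 and 22.46 TPM and a log2 ratio of −0.40 that did not pass (limma adjusted p = 0.174). That Rnf2 level was mostly Rnf2-203, at 27.97 and 20.47 TPM, a form that lacks a coding exon described below. Rnf2-201, which holds the exon, had 5.05 and 4.74 TPM, less than Ring1 in both libraries. Each set against genes of like GC content, Ring1 was below Rnf2, with an adjusted ratio of −1.61 (limma adjusted p = 5.01e-12). Ring1 has a GC content of 61.7% and Rnf2 of 42.4%. The direction of this ratio therefore depends on the scale, and neither gene can be called the higher.

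The short transcripts of both ligase genes carried much of their TPM. Ring1-202, a retained-intron transcript of 371 bases, took 36.09% of Ring1 TPM in replicate 1 and 47.26% in replicate 2, but 6.04% and 8.7% of its counts. Rnf2-203, of 1106 bases, took 84.66% and 80.44% of Rnf2 TPM. It lacks an in-frame coding exon of 216 bases, or 72 codons, at chr1:151476140-151476355.
Rnf2 alternative exon: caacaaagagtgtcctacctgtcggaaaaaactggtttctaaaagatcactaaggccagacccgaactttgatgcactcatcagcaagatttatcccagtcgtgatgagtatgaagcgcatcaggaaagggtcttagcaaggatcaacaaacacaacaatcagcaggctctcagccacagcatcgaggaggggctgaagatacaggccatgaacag
Over the protein-coding transcripts that span this exon, the form without it took 84.7% and 81.2% of the TPM (83.0% ± 2.47, SD, n = 2), and 63.6% and 57.4% of the counts. In TPM, the forms without the exon led in Ezh2, Suz12 and Rnf2, in both libraries. This covers only the exons shown and is no common trait of the subunit genes. In Ezh1 the leading Ezh1-203 has 2250 coding bases, and Ezh1-201, with 1737, took 4.31% and 7.36% of the TPM.

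Bmi1, the PCGF subunit that stimulates the E3 ligase in canonical PRC1 and is known for stem cell self-renewal, was high as a row and low in coding transcripts. It lies at chr2:18677018-18686629 on the plus strand. Its row had 41.97 TPM (2669 counts) in replicate 1 and 49.37 TPM (2517 counts) in replicate 2, 45.67 ± 5.23 (SD, n = 2). The processed transcript Bmi1-203, of 464 bases, took 80.99% and 79.53% of the TPM but 29.3% and 26.1% of the counts. Protein-coding transcripts held 7.98 and 10.1 TPM, 9.04 ± 1.5 (SD, n = 2), most of it in Bmi1-201.

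Relative to Rnf2 the Bmi1 row stood at a log2 ratio of 0.34 in replicate 1 and 0.93 in replicate 2, with a mean of 0.63 (standard error 0.289, limma adjusted p = 0.0347). In protein-coding transcripts the ratio turned to −1.59 (standard error 0.255, limma adjusted p = 9.09e-10). In protein-coding transcripts Bmi1 and Eed were at like levels, with a log2 ratio of Eed over Bmi1 of 0.22 in replicate 1 and −0.16 in replicate 2, within the spread between libraries. Eed and Bmi1 were the 2 of 9 subunit genes led by a transcript of another type than protein-coding, beside 22.9% of 5714 protein-coding genes with at least 2 transcripts and 1 TPM.

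Within the PCGF family, whose members are exclusive partners in different PRC1 complexes, Bmi1 took 39.8% ± 5.59 of the summed row TPM and Pcgf3, of a variant PRC1, 38.4% ± 7.57 (SD, n = 2). Bmi1 was below Pcgf3 in replicate 1 (35.9% against 43.7%) and above it in replicate 2 (43.8% against 33%). Pcgf2, the closest paralog of Bmi1, took 0.56% ± 0.223, from 23 and 37 counts. In protein-coding transcripts the family was spread more evenly, with Pcgf3 at 27.4%, Bmi1 at 24.4%, Pcgf5 at 18.0%, Pcgf6 at 16.6% and Pcgf1 at 11.8% on average.

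Of the chromodomain subunits, Cbx7 was abundant and Cbx8 had no reads. CBX proteins read the methyl mark of PRC2 and so bring canonical PRC1 to it. Cbx7, at chr15:79915807-79971119 on the minus strand, had 40.47 TPM (4950 counts) in replicate 1 and 35.66 TPM (3425 counts) in replicate 2, 38.06 ± 3.4 (SD, n = 2). Cbx8, at chr11:119036305-119040969 on the minus strand, had 0 counts in each library. A count of 0 allows up to 3 counts in each library by a one-sided limit, and up to 3.689 by the two-sided exact 95% interval. At the effective length of the shortest annotated Cbx8 transcript, which gives the highest level, 3 counts are 0.106 and 0.145 TPM. Against this floor Cbx8 was at least 380-fold lower than Cbx7 in replicate 1 and at least 246-fold lower in replicate 2, by counting error only. The authors' posterior mean for Cbx8 was 0.06 and 0.08 TPM.

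Among Cbx2, Cbx6, Cbx7 and Cbx8, Cbx7 took 87.5% ± 0.849 of the TPM and Cbx6 12.5% ± 0.849 (SD, n = 2). Cbx2 had 0 counts in replicate 1 and 1 in replicate 2. These shares barely moved in protein-coding transcripts, where Cbx7 took 87.2% ± 1.06. Cbx7-202, of 710 bases, led with 54.82% and 62.94% of Cbx7 TPM, while by counts the longer Cbx7-201 led with 34.2% and 36.9%. The retained-intron transcript Cbx7-207 took 7.94% and 8.13% of the TPM but 28.6% and 28.5% of the counts. Protein-coding transcripts held 71.4% and 71.5% of the Cbx7 counts. Cbx7-206 took 9.41% of the TPM in replicate 1 and was listed at 0 in replicate 2, where its posterior mean was 5.94%. All 9 subunit genes with counts had the same leading transcript in both libraries, beside 89.0% of the 5714 genes.

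Neighbours in the order were set beside each other by their log2(TPM + 1) ratio within each library. In the row order, Ring1 over Cbx7 had opposite signs, −0.25 and 0.29, and Jarid2 over Ezh2, at 0.25 ± 0.33 (SD, n = 2), did not exceed its spread. The ranges of Bmi1 and Ring1 overlapped. The widest step between neighbours with counts was Ezh2 over Ezh1, at 2.07 ± 0.08 (SD, n = 2), followed by Eed over Suz12 at 0.75 ± 0.37. In protein-coding transcripts the widest steps were Bmi1 over Ezh1 at 1.5 ± 0.38, Ezh2 over Eed at 0.74 ± 0.16 and Suz12 over Cbx7 at 0.71 ± 0.36 (SD, n = 2). There, Jarid2 over Ezh2 (0.25 ± 0.33) and Eed over Bmi1 did not exceed their spread, and the ranges of Cbx7 and Rnf2 overlapped.

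The subunit genes differed modestly between the libraries. After scaling by edgeR's TMM factors, replicate 2 over replicate 1 was 1.33-fold for Suz12, 1.30-fold for Bmi1, 1.15-fold for Jarid2 and 1.14-fold for Ring1. It was 0.954-fold for Cbx7, 0.915-fold for Eed, 0.848-fold for Ezh2, 0.845-fold for Rnf2 and 0.839-fold for Ezh1. An exact two-sided binomial test on counts, adjusted over 10445 genes, with a minimum fold of 1.5, called 0 of 9 subunit genes, beside 12.2% of all genes. Without the minimum fold it called 8 of 9, all but Cbx7 (adjusted p = 0.0587), beside 59.2% of all genes. Of these, 4 were higher in replicate 2 and 4 lower, beside 30.0% and 29.2% of all genes.

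This test holds for counting error between 2 libraries and not for a condition. With the spread over genes as the error (edgeR's exact test with a common dispersion of 0.0354), 0 of 9 subunit genes and 0.91% of all genes were called. That dispersion was estimated from the same 2 libraries taken as 1 group, so the differences tested also set the error. Few calls follow from this setting, and they cannot show that the libraries are alike. The smallest unadjusted p of edgeR's test among the subunit genes was then 0.285, for Suz12. Thus 0 of 9 had an unadjusted p under 0.05, beside 576 of all 10445 genes. So few subunit genes cannot be told apart from that share. Ezh1 and Ezh2 had nearly the same fold between libraries. The log2 ratio to Ezh2 accordingly had an SD over the libraries of 0.08 for Ezh1 and of 0.08 for Eed, and of 0.45 for Suz12 and 0.33 for Jarid2.

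**Figure D4:**
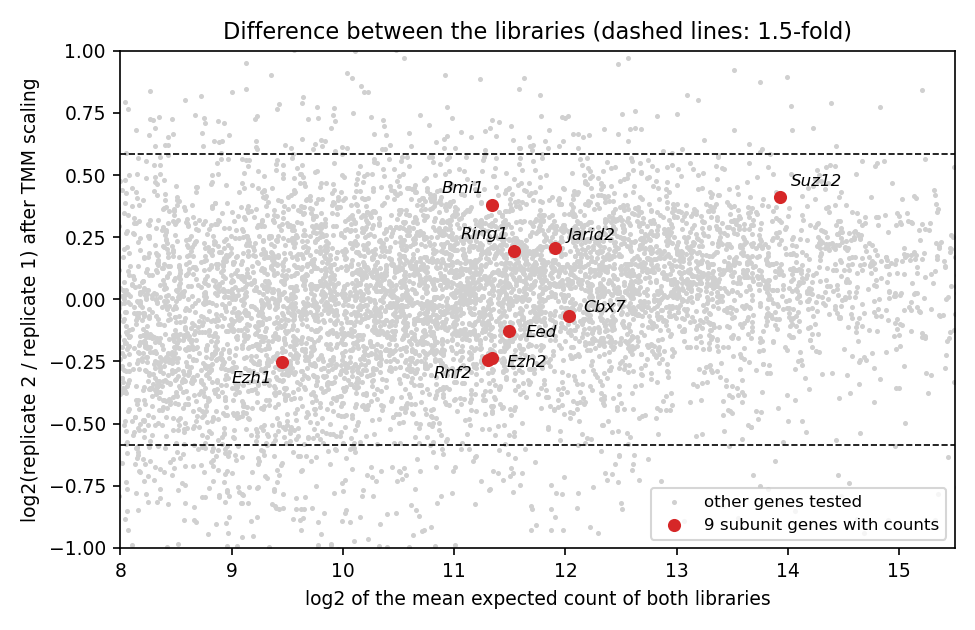
log2 ratio of replicate 2 over replicate 1 after TMM scaling against the log2 mean expected count, with genes tested in grey and the 9 subunit genes with counts in red; both axes are cut to the range around the subunit genes. All 9 lie within the dashed lines at 1.5-fold, from Ezh1 at 0.839-fold to Suz12 at 1.33-fold.

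Other Polycomb genes were described from lists. Together with the lists of families, opposing enzymes, target genes and cell type markers, these held 119 genes, all of them measured. In both libraries 7 of 9 PRC2 accessory genes reached 1 TPM, and the list's median was 10.8 TPM. Rbbp7, a histone-binding subunit shared with other complexes, was the highest at 58.5 ± 1.09 TPM, and Epop the lowest at 0.075 ± 0.0212 TPM (SD, n = 2). Of 8 CBX and PHC-type PRC1 genes, 4 reached 1 TPM, led by Phc2, a polyhomeotic subunit of canonical PRC1, at 47.9 ± 1.87 TPM, with Scml4 at 0 counts. Of 21 variant PRC1 genes 18 did, with a median of 10.6 TPM, and Fbrs was the highest at 213 ± 25.4 TPM.

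Genes that oppose Polycomb were present as well. In both libraries 7 of 10 such genes reached 1 TPM, and the list's median was 14.1 TPM. Kdm6b, which removes the methyl mark that PRC2 lays down, was the highest at 154.79 and 170.01 TPM, 162 ± 10.8 (SD, n = 2). Asxl3, of a histone deubiquitinase complex, had 1 and 0 counts.

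Genes that Polycomb is known to hold silent in many cell types were mostly at or near 0. Of 24 such genes, 13 had 0 counts in both libraries, beside 39.6% of all protein-coding genes, and 2 reached 1 TPM in both, a share of 8.33%, beside 35.3% of all protein-coding genes. The 2 were Pax6, at 31.56 and 29.35 TPM, and Pax3, at 6.97 and 8.22 TPM, both transcription factors known from the nervous system; Pax3 was named after its value was seen. Histone marks were not measured in these libraries.

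GC content went with the level of genes in general. Across 7743 protein-coding genes with a mean of at least 1 TPM, GC content and log2(TPM + 1) had a Pearson r of 0.303 and a Spearman rho of 0.305, as a description over genes that share the same libraries. The median level was 5.39 TPM in genes with up to 42% GC and 32.3 TPM in genes above 58%. Ring1, Cbx8 and Cbx7 lie in the latter class, at 61.7%, 58.9% and 58.1%, and Suz12 alone of the 10 lies in the former, at 38.7%. Ezh1 has a higher GC content than Ezh2, 49.2% against 44.0%, and after adjustment its ratio to Ezh2 was −2.58 rather than −2.07. The part of GC content in the order of levels was not tested further.

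**Figure D5:**
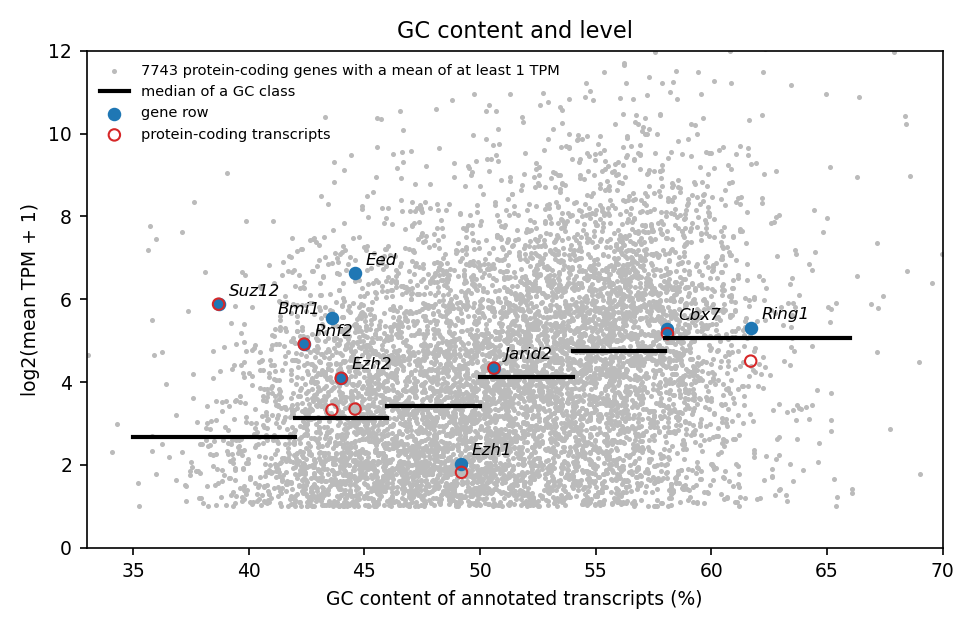
Mean log2(TPM + 1) against mean transcript GC content for protein-coding genes with a mean of at least 1 TPM (grey), with class medians as lines. For the subunit genes, blue points show the whole gene row and open red circles the protein-coding transcripts alone. Suz12 lies above its class at a GC content of 38.7%, and Ezh1 lies far below the others with counts.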

How the data were processed

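Per the labels, poly(A) RNA of G1E-ER4 cells was sequenced in 2 libraries of 1 group. The authors deposited expected counts (estimated counts of fragments, not normalized) per gene and transcript, TPM values, posterior mean versions of both, and the percent of gene TPM that each transcript takes. Build mm10 and annotation GENCODE M4 are named in the deposited description files. The aligner, the quantifier and the handling of strand: not given in the sources used here. Names, types, coordinates, GC content and sequences were taken from GENCODE M21, also on mm10, which named 42462 of 43346 gene rows. Of the 74 transcripts of the subunit genes, 5 have another length there.

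The members and lists were chosen with earlier results of these data known. Other Polycomb genes were named as the highest and lowest of each list, and target and marker lists by their highest gene. Members of the EZH, RING, CBX and PCGF families could be named. A further gene of the lists is not reported here and was left out of list counts and family shares.

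Ratios within a library were fitted with limma 3.58.1 on log2(TPM + 1), over genes with a mean of at least 1 TPM, with Benjamini-Hochberg adjustment over all of them. Cbx8, at 0 counts, could not enter the planned limma fit and is given as a bound, from 3 counts at the shortest annotated transcript. Expected counts were rounded, scaled with TMM (edgeR 4.0.16) and tested by an exact binomial test over genes with at least 20 summed counts. Totals were 73681318 and 56056404 counts, and intervals are exact at 95%. Alternatives were the pseudocount, filters, posterior means, a GC adjustment, DESeq2 1.42.0 size factors or library totals, and leaving out each library; protein-coding transcripts alone were added after the data were seen. R 4.3.3, Python 3.11.15, pandas 2.3.3, numpy 2.4.6, scipy 1.17.1 and matplotlib 3.10.9 were used.

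The steps were tested on simulated data. Against Ezh2, over 8263 genes, limma called 100% of 50 genes made to differ by a log2 ratio of 1, and likewise of 2 and of 4, and 0% at 0. Between replicates, over 10447 genes, the binomial test called 100% of 50 genes at folds of 2 and 0.5, 98% at 1.5 and 0% at 1, in each case without a minimum fold. These simulated counts held counting noise alone. The simulated ratios had the same noise level for all genes, set from the median standard error of the fit against Ezh2. Their shares hold for that setting and say little about genes with a wider spread. All of them were taken against the same simulated Ezh2 values, so the 50 genes at 0 were not independent.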

Additional observations from a re-analysis of the deposited data

How the results depend on the processing

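Of 66 recomputed values, 10 moved and 5 reversed. The other 51 kept their direction and their side of the threshold, or moved by less than the spread between the libraries. Part of the 51 could not move. For genes that pass the filter, leaving it out changes the error and the adjusted p but not the ratio. The share in 1 library always lies within the SD of the mean of both. The 51 are therefore not separate checks. Ezh1 over Ezh2 kept its direction under every alternative run, between −1.98 (posterior mean TPM) and −2.58 (GC-adjusted TPM). With TPM adjusted for GC content, Ring1 over Rnf2 reversed to −1.61 and Jarid2 over Ezh2 to −0.45. With protein-coding transcripts only, Ring1 over Rnf2 was −0.40, Eed over Ezh2 −0.74 and Bmi1 over Rnf2 −1.59. The share of Ezh1 in Ezh1 plus Ezh2 TPM, 16%, was 17.2% by posterior means, 21.1% by expected counts, 14.4% after the GC adjustment and 13.6% in protein-coding transcripts. The bound on Cbx8 over Cbx7 lay between −7.94 and −8.57 on the log2 scale when 1 library was left out. It was −9.96 at the deposited effective length of Cbx8 and −7.64 by the two-sided limit, both added after the data were seen. Fitted values for it, which depend on the pseudocount and are no bounds, were −5.29 without a filter, −8.57 with a pseudocount of 0.1 TPM and −5.24 by posterior means. The count of subunit genes that differed between the libraries, 0, was 8 without a minimum fold, and 0 under the other alternatives run. Leaving out 1 library moved Ring1 over Rnf2 between 0.04 and 0.76 and Jarid2 over Ezh2 between 0.02 and 0.48, values with no test. The causes were not tested. The GC adjustment and the protein-coding alternative were not run for Cbx8 over Cbx7. No paired analysis was possible because both libraries belong to 1 group. Depth limits Cbx8, for which a count of 0 allows up to 3 counts.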
